A study of Mus musculus with 6 samples.

Results

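The genes described here build the mitotic spindle, hold chromosomes to it, condense them, time their separation and divide the cell. They were taken as a fixed list of 56 gene symbols for mitotic kinases, cyclins, spindle motors, kinetochore, condensin and cytokinesis proteins, and each symbol was found once among the 22105 named genes of the table. The cells were 4T1, a mouse mammary carcinoma line from a BALB/c tumor that serves as a model of triple-negative breast cancer. The libraries came from 3 samples treated with DMSO, the vehicle, and 3 samples treated with 10 µM P3FI-90, an inhibitor of the histone lysine demethylase KDM3B, each for 24 h. Both groups grew in the same medium, and both are 1 cell line, for which the labels give no genetic change. The labels do not say whether the samples of a group came from separate cultures, so the p-values measure the spread between these samples, which may be technical.

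A cell enters mitosis when the kinase CDK1, bound to cyclin B, becomes active, with help from the kinases PLK1 and Aurora A. Microtubules then capture the chromosomes at kinetochores, protein plates assembled on centromeric chromatin, and the spindle assembly checkpoint holds the cell in metaphase until every chromosome is attached. The ubiquitin ligase APC/C, with its activator CDC20, then destroys securin and cyclin B, the sister chromatids part and the cell divides. Most of these genes are transcribed late in the cell cycle, when the MuvB complex acts with B-MYB and FOXM1, and they are repressed in resting cells by MuvB in the DREAM complex. LIN54, a MuvB subunit, binds a short promoter element, the cell cycle genes homology region (CHR), and NF-Y binds CCAAT boxes beside it.

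Libraries held between 31327094 and 37395732 counts on named genes, and a member had at least 1110 counts in every library. Values are given as normalized counts, which are read counts scaled by TMM factors to the mean effective library size, so that 100 normalized counts are 2.85 CPM, the share of a library's counts scaled to a fixed total. TMM factors were 0.927 to 0.930 for DMSO libraries and 1.08 in each P3FI-90 library. As markers of mammary epithelium, all 10 listed genes were detected, from Epcam to Cldn7. Their summed level was 166600 to 175680 normalized counts in DMSO libraries and 71350 to 74754 in P3FI-90 libraries, and all 10 fell. Of the leukocyte markers, Cd3e and Itgam reached at most 2.02 and 4.05 normalized counts and Ptprc at most 24.3. Cd68 had means of 382 with DMSO and 330 with P3FI-90 and passed in neither direction, and Csf1r was called higher, from 41.5 to 121 (log2 fold change 1.56, adjusted p = 0.0002, edgeR's quasi-likelihood test with Benjamini-Hochberg adjustment). The summed level of the leukocyte list was 396 to 496 with DMSO and 405 to 512 with P3FI-90. Among the 7 fibroblast and endothelial markers, Lum was at 0, Pdgfra stood between 910 and 1366 normalized counts and was called lower, Pecam1 reached at most 26.4 and was called higher, no other passed 9.11, and their sum was 1348 to 1377 with DMSO and 935 to 1047 with P3FI-90. The part of these marker levels in the results below was not tested.

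After 24 h of P3FI-90 the mitotic genes were mostly lower, and by very different amounts. Of the 56 members, 46 fell, 8 rose and 2 passed in neither direction (edgeR's quasi-likelihood test with Benjamini-Hochberg adjustment over the 12288 genes tested, adjusted p under 0.05). Every member written below as fallen or risen passed this test. Across all tested genes 39.4% were called lower and 39.9% higher. The counts by role below stand beside these same shares, and no role group was tested as a set. By more than 1 on the log2 scale, 15 members fell, against 10.6% of all tested genes. None of the members rose by more than 1, while 1562 of the 12288 tested genes did and 1300 fell by that much. The median log2 fold change was -0.45 over the members and 0.01 over all tested genes, and the members ran from -2.42 for Plk1 to 0.34 for Smc4. In 46 members every P3FI-90 library lay below every DMSO library, in 8 every one lay above, and Kif15 and Cdca5 overlapped. Of all tested genes, 81.2% had groups that did not overlap, in either direction. Together the members took 1.20% ± 0.0176 (SD, n = 3) of the counts with DMSO and 0.983% ± 0.00566 (SD, n = 3) with P3FI-90 (two-sided exact permutation test, p = 0.1, the smallest that 3 against 3 allows).

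**Figure D1:**
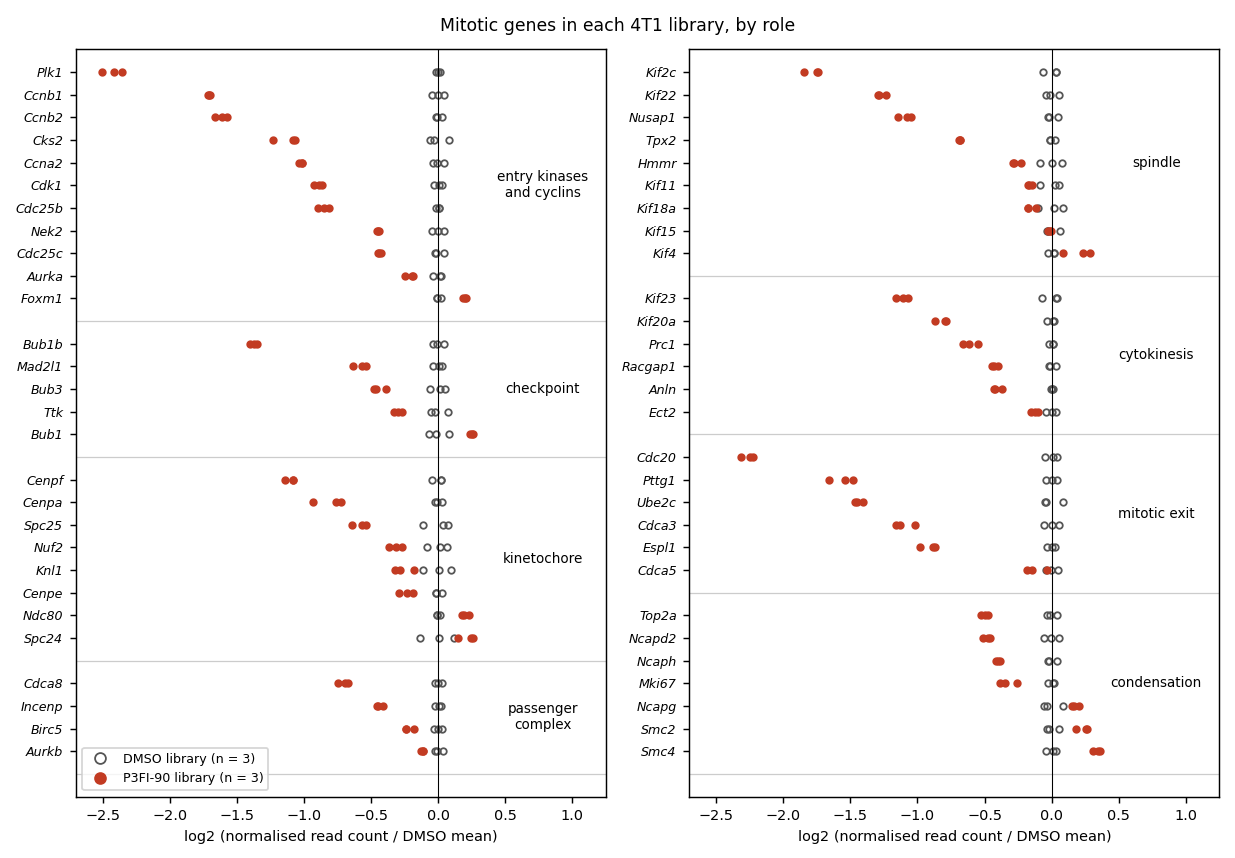
Each circle is 1 library, open for DMSO and filled for P3FI-90 (n = 3 each), and the horizontal axis is the log2 ratio of its normalized count to the mean of the DMSO libraries for the member on that line, with members grouped by role. Plk1 and Cdc20 lie farthest to the left, at log2 fold changes of -2.42 and -2.26, while Foxm1, Bub1, Ndc80, Spc24, Kif4, Ncapg, Smc2 and Smc4 lie to the right of their DMSO libraries.

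The choice of library scaling moves all genes together. With total counts alone, each log2 fold change was 0.21 higher than with TMM, the median over all tested genes was 0.23, and 35 members were lower and 11 higher, where 29.6% of all tested genes were called lower and 50.3% higher. By role, total counts gave 3 of 8 kinetochore genes lower and 2 higher, 2 of 4 passenger genes lower and 1 higher, 4 of 9 spindle genes lower and 2 higher, and 5 of 6 mitotic exit genes lower and none higher. Relative to the median of all tested genes the members' median stayed at -0.46 under TMM, DESeq2 size factors, upper quartiles and total counts. Under all 4 scalings 35 members were called lower and 8 higher, and these 8 are the same genes that rose under TMM. Aurkb and Ect2 were called lower under the other scalings and higher with total counts. The remaining 11 members lost or gained a call under some scaling. In these bulk libraries, fewer cells in G2 and mitosis and less RNA per cell cannot be told apart.

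**Figure D2:**
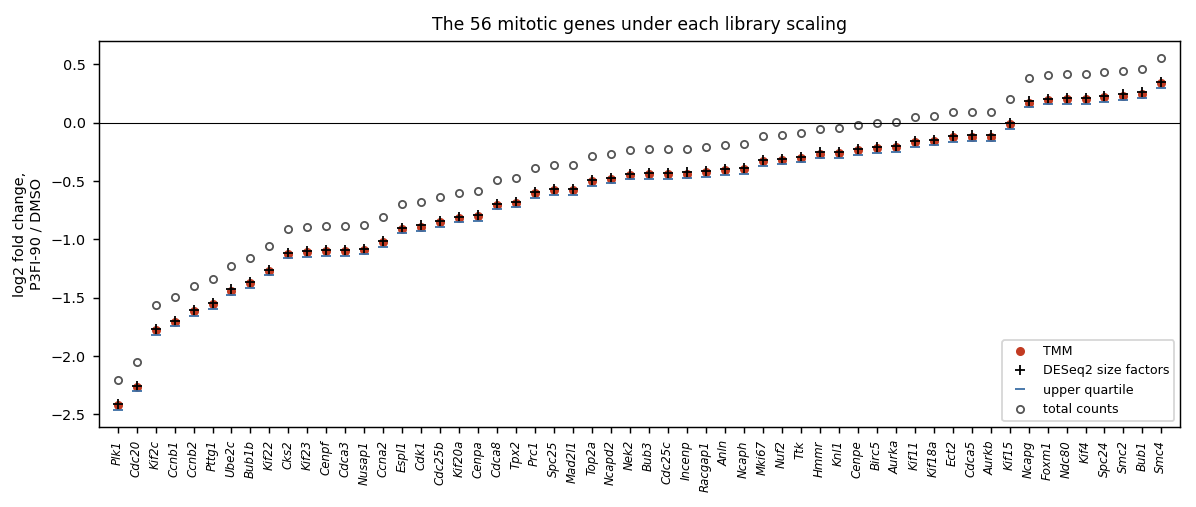
The vertical axis is the log2 fold change of P3FI-90 against DMSO for the 56 members in order of size, under TMM (filled circles), DESeq2 size factors (plus signs), upper quartiles (dashes) and total counts (open circles). The total-count values sit 0.21 above the TMM values throughout, which carries members with small falls, such as Aurka, Kif11 and Ect2, across 0 and leaves the order unchanged.

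The genes of the CDK1 and cyclin engine and of mitotic entry were among those with the largest falls. In this group 10 of 11 fell and 1, Foxm1, rose, with a median log2 fold change of -0.89. Plk1, the kinase that promotes entry, spindle assembly and APC/C activation, had 7083, 6997 and 7155 normalized counts in the DMSO libraries and 1248, 1327 and 1385 in the P3FI-90 libraries. All P3FI-90 values lay far below all DMSO values, at 18.6% of the DMSO level (log2 fold change -2.42, SE 0.04, adjusted p = 1.23e-14, edgeR, Benjamini-Hochberg). For Ccnb1, cyclin B1, the values were 10190, 10855 and 10475 with DMSO and 3198, 3210 and 3238 with P3FI-90. The spread within each group was small beside the gap, and the level was 30.6% of that with DMSO (log2 fold change -1.71, SE 0.04, adjusted p = 4.95e-14, edgeR, Benjamini-Hochberg). Ccnb2, cyclin B2, stood at 8672, 8892 and 8623 with DMSO and at 2926, 2755 and 2856 with P3FI-90. Again no library of one group reached the other (log2 fold change -1.62, SE 0.04, adjusted p = 8.74e-14, edgeR, Benjamini-Hochberg).

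Foxm1, the transcription factor that drives late cell cycle genes, went the other way. Its values were 6070, 6074 and 6197 with DMSO and 7055, 7031 and 6937 with P3FI-90, so the groups did not overlap and the treated libraries were the higher ones (log2 fold change 0.20, SE 0.03, adjusted p = 7.00e-05, edgeR, Benjamini-Hochberg). Of the others in the group, Cks2, a CDK-binding subunit, fell by 1.12, Ccna2, cyclin A2, by 1.02, Cdk1 by 0.89 and Cdc25b, a phosphatase that activates CDK1, by 0.85 on the log2 scale. Falls were smaller for the centrosomal kinase Nek2, at -0.45, for the CDK1-activating phosphatase Cdc25c, at -0.44, and Aurka, the Aurora A kinase, at -0.21. With total counts Aurka was at 0.01.

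Of the 5 spindle assembly checkpoint genes 4 fell and 1 rose, with a median of -0.44 on the log2 scale, and the largest fall and the rise belonged to a pair of paralogs. Bub1b, which encodes BUBR1, a part of the complex that inhibits CDC20, had 11046, 11458 and 10803 normalized counts with DMSO and 4347, 4294 and 4196 with P3FI-90. The treated libraries all lay below, at 38.5% of the DMSO level (log2 fold change -1.38, SE 0.04, adjusted p = 2.95e-13, edgeR, Benjamini-Hochberg). Bub1, the kinase that marks centromeric histone H2A and recruits other checkpoint proteins, had 6818, 7569 and 7070 with DMSO and 8581, 8427 and 8506 with P3FI-90. Here the treated libraries all lay above (log2 fold change 0.25, SE 0.04, adjusted p = 4.64e-05, edgeR, Benjamini-Hochberg). Mad2l1, encoding MAD2, another part of the inhibitory complex, stood at 4545, 4404 and 4618 and 3051, 2912 and 3118 in the same order. It was lower in every treated library (log2 fold change -0.58, SE 0.04, adjusted p = 1.17e-08, edgeR, Benjamini-Hochberg). Bub3, the partner of both BUB proteins, gave 6591, 6950 and 7132 with DMSO and 4990, 5274 and 4938 with P3FI-90. The groups stood apart, with the treated values lower (log2 fold change -0.44, SE 0.04, adjusted p = 1.55e-07, edgeR, Benjamini-Hochberg). Ttk, encoding the MPS1 kinase that starts checkpoint signaling, gave 3897, 4156 and 3812 and 3214, 3150 and 3275. Its treated libraries were lower too (log2 fold change -0.30, SE 0.04, adjusted p = 2.28e-05, edgeR, Benjamini-Hochberg), but the call was lost with total counts (log2 fold change -0.09, adjusted p = 0.0930, edgeR).

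Kinetochore genes went in both directions within 1 complex. Of 8 members 6 fell and 2 rose, 75% and 25%, beside 39.4% and 39.9% of all tested genes. Their median was -0.29 on the log2 scale, and the split was not tested. Cenpf, a large outer kinetochore and microtubule-binding protein, had 6809, 7154 and 7158 normalized counts with DMSO and 3188, 3331 and 3319 with P3FI-90. Treated libraries were all lower, at 46.6% of the DMSO level (log2 fold change -1.10, SE 0.04, adjusted p = 3.78e-12, edgeR, Benjamini-Hochberg). Cenpa, the histone H3 variant that marks centromeres, had 7081, 6844 and 6916 and 4088, 4204 and 3644. The P3FI-90 values were below all DMSO values, with sample 3 the lowest (log2 fold change -0.80, SE 0.05, adjusted p = 1.43e-09, edgeR, Benjamini-Hochberg). Spc25, a subunit of the NDC80 complex that grips microtubules, had 2004, 2057 and 1809 and 1251, 1350 and 1323. No treated library reached the DMSO range (log2 fold change -0.58, SE 0.06, adjusted p = 5.37e-07, edgeR, Benjamini-Hochberg).

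Ndc80 and Spc24, subunits of the same complex, were higher. Ndc80 had 3953, 3970 and 4033 normalized counts with DMSO and 4561, 4503 and 4674 with P3FI-90. All treated values lay above the DMSO values (log2 fold change 0.20, SE 0.04, adjusted p = 0.000144, edgeR, Benjamini-Hochberg). Spc24 had 2176, 2393 and 2587 with DMSO and 2830, 2643 and 2852 with P3FI-90. The groups were separate but close, the lowest treated sample lying just above the highest DMSO sample (log2 fold change 0.22, SE 0.06, adjusted p = 0.00515, edgeR, Benjamini-Hochberg). Nuf2, the remaining subunit, was at -0.32, the kinetochore scaffold Knl1 at -0.26 and the motor Cenpe, which moves chromosomes to the spindle equator, at -0.23 on the log2 scale. These last 3 were called lower with TMM and passed in neither direction with total counts.

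All 4 members of the chromosomal passenger complex, which corrects wrong attachments and later acts in cytokinesis, fell, and their sizes differed. Cdca8, encoding borealin, had 4992, 4909 and 5086 normalized counts with DMSO and 3135, 2978 and 3083 with P3FI-90. Its groups lay well apart, treated libraries lower (log2 fold change -0.70, SE 0.04, adjusted p = 5.85e-10, edgeR, Benjamini-Hochberg). Incenp, the scaffold, gave 7467, 7639 and 7722 and 5552, 5590 and 5734. Treated values were again all lower (log2 fold change -0.44, SE 0.03, adjusted p = 2.55e-08, edgeR, Benjamini-Hochberg). Birc5, encoding survivin, gave 7606, 7463 and 7777 with DMSO and 6460, 6733 and 6459 with P3FI-90. The gap was smaller and the groups did not overlap (log2 fold change -0.22, SE 0.03, adjusted p = 4.98e-05, edgeR, Benjamini-Hochberg). Aurkb, the Aurora B kinase itself, had 5842, 5598 and 5666 and 5210, 5267 and 5279. Its treated libraries were at 92.1% of the DMSO level (log2 fold change -0.12, SE 0.03, adjusted p = 0.00548, edgeR, Benjamini-Hochberg), and under total counts it was called higher (0.10, adjusted p = 0.0194, edgeR).

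Spindle motors and microtubule-associated proteins ranged from -1.78 to 0.20 on the log2 scale. Of 9 members 7 fell, 1 rose and 1 passed in neither direction, with a median of -0.26 on the log2 scale. Kif2c, or MCAK, a kinesin that takes microtubules apart at centromeres, had 5069, 5074 and 4756 normalized counts with DMSO and 1477, 1483 and 1382 with P3FI-90. Every treated value was below every DMSO value, at 29.1% of the DMSO level (log2 fold change -1.78, SE 0.05, adjusted p = 5.10e-13, edgeR, Benjamini-Hochberg). Kif22, the chromokinesin Kid that pushes chromosome arms outward, had 5549, 5915 and 5662 and 2426, 2341 and 2333. The groups were far apart, treated libraries lower (log2 fold change -1.27, SE 0.04, adjusted p = 2.30e-12, edgeR, Benjamini-Hochberg). Nusap1, which bundles microtubules near chromosomes, had 6577, 6870 and 6535 with DMSO and 3005, 3225 and 3156 with P3FI-90. It too was lower in every treated library (log2 fold change -1.09, SE 0.04, adjusted p = 6.93e-12, edgeR, Benjamini-Hochberg).

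Kif4, the chromokinesin that works with PRC1 at the central spindle, had 3526, 3635 and 3633 normalized counts with DMSO and 3815, 4378 and 4219 with P3FI-90. Treated libraries were all higher, sample 1 only slightly (log2 fold change 0.20, SE 0.05, adjusted p = 0.00188, edgeR, Benjamini-Hochberg). Tpx2, which activates Aurora A on the spindle, fell by 0.69 on the log2 scale and Hmmr, a spindle pole protein, by 0.26. Kif11, the motor that separates the spindle poles, was at -0.17, and Kif18a, which limits chromosome swings, at -0.15. Both were called lower with TMM and lay above 0, without a call, with total counts. The call for Kif18a was also lost without DMSO sample 2 (log2 fold change -0.12), without P3FI-90 sample 2 (-0.15) and without P3FI-90 sample 3 (-0.15). Kif15, a motor that shares the task of Kif11, stood at 4567, 4889 and 4598 with DMSO and 4671, 4597 and 4650 with P3FI-90. These values overlapped (log2 fold change -0.01, SE 0.04, adjusted p = 0.745, edgeR, Benjamini-Hochberg). With total counts Kif15 was called higher (log2 fold change 0.20, adjusted p = 0.000214, edgeR, Benjamini-Hochberg).

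All 6 cytokinesis genes fell, with a median of -0.51 on the log2 scale. Kif23, the motor subunit of centralspindlin, had 7715, 7700 and 7143 normalized counts with DMSO and 3361, 3580 and 3493 with P3FI-90. Its treated libraries were all lower (log2 fold change -1.11, SE 0.04, adjusted p = 9.59e-12, edgeR, Benjamini-Hochberg). Kif20a, the kinesin MKLP2 that carries the passenger complex to the midzone, had 9380, 9704 and 9674 and 5253, 5550 and 5532. No treated library reached the DMSO range (log2 fold change -0.82, SE 0.04, adjusted p = 5.15e-11, edgeR, Benjamini-Hochberg). Prc1, which bundles the antiparallel microtubules of the midzone, had 9945, 9947 and 9725 with DMSO and 6762, 6443 and 6257 with P3FI-90. Treated values were again lower throughout (log2 fold change -0.61, SE 0.04, adjusted p = 1.58e-09, edgeR, Benjamini-Hochberg). Racgap1, the other centralspindlin subunit, fell by 0.42 and the contractile ring scaffold Anln by 0.41. Ect2, the exchange factor that switches on RhoA, was at -0.12 with TMM and was called higher, at 0.09, with total counts.

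The genes of anaphase onset and mitotic exit had the lowest median of the 8 groups, -1.27 on the log2 scale, with 5 of 6 lower and 1 in neither direction. Cdc20, the activator of the APC/C, had 8674, 8326 and 8846 normalized counts with DMSO and 1809, 1837 and 1734 with P3FI-90. The treated libraries lay at 20.8% of the DMSO level with no overlap (log2 fold change -2.26, SE 0.04, adjusted p = 8.75e-15, edgeR, Benjamini-Hochberg). Ube2c, the ubiquitin-conjugating enzyme that works with the APC/C, had 9880, 9027 and 9060 and 3520, 3407 and 3384. Its treated values were all lower (log2 fold change -1.44, SE 0.04, adjusted p = 8.94e-13, edgeR, Benjamini-Hochberg). Pttg1, securin, had 3394, 3284 and 3475 with DMSO and 1212, 1070 and 1167 with P3FI-90. It was lower in each treated library (log2 fold change -1.56, SE 0.06, adjusted p = 7.62e-12, edgeR, Benjamini-Hochberg). Espl1, separase, the protease that securin holds back, fell by 0.91. Cdca3, a protein that promotes mitotic entry but was counted in this group and its median, fell by 1.10. Cdca5, sororin, which protects cohesin, stood at 1938, 1878 and 1824 and 1659, 1699 and 1837. Its groups overlapped through P3FI-90 sample 3 (log2 fold change -0.12, SE 0.05, adjusted p = 0.0575, edgeR, Benjamini-Hochberg), and without that sample it was called lower (-0.17), as it was without DMSO sample 3 (-0.14) and with upper-quartile scaling (-0.16).

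In the condensation group, the condensin I complex divided by subunit. Of 7 members 4 fell and 3 rose, 57.1% and 42.9%, with a median of -0.33 on the log2 scale. Over all tested genes 39.4% were called lower and 39.9% higher, and the split within the group was not tested. Top2a, topoisomerase II alpha, which untangles sister DNA, had 43786, 46130 and 44411 normalized counts with DMSO and 31028, 31777 and 32148 with P3FI-90. All treated libraries were lower (log2 fold change -0.50, SE 0.03, adjusted p = 9.03e-10, edgeR, Benjamini-Hochberg). Ncapd2, a HEAT-repeat subunit of condensin I, had 7810, 7530 and 8122 and 5626, 5493 and 5701. The treated values lay below the DMSO range (log2 fold change -0.48, SE 0.04, adjusted p = 2.61e-08, edgeR, Benjamini-Hochberg). Ncaph, the kleisin that closes the ring, had 5891, 5652 and 5616 with DMSO and 4385, 4346 and 4280 with P3FI-90. It was lower in every treated library (log2 fold change -0.40, SE 0.04, adjusted p = 1.07e-07, edgeR, Benjamini-Hochberg). Mki67, encoding the Ki-67 protein that coats mitotic chromosomes, fell by 0.33.

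The members of this group that rose were both ATPase subunits and the other HEAT-repeat subunit. Smc4 had 17396, 18310 and 18044 normalized counts with DMSO and 22186, 22704 and 23044 with P3FI-90. All treated libraries were higher, and this was the largest rise among the 56 members (log2 fold change 0.34, SE 0.03, adjusted p = 1.63e-07, edgeR, Benjamini-Hochberg). Smc2, its ATPase partner, had 8489, 9029 and 8611 and 10442, 9859 and 10389. Treated values again all lay above (log2 fold change 0.23, SE 0.04, adjusted p = 4.60e-05, edgeR, Benjamini-Hochberg). Ncapg had 6894, 7596 and 7005 with DMSO and 8234, 8025 and 7972 with P3FI-90. The treated libraries were higher, with DMSO sample 2 nearest to them (log2 fold change 0.17, SE 0.04, adjusted p = 0.00119, edgeR, Benjamini-Hochberg). Removal of a fitted trend with gene length and GC content left Ncapg at -0.08 and Ndc80 at 0.04, without a call, and put Kif15 at -0.33, called lower. The SMC subunits also serve condensin II, whose own subunit Ncapd3 is among the genes counted further on.

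Because partners were read from the same libraries, their ratio does not depend on scaling. The 14 pairs given here were chosen after the values were seen, with the member that was lower relative to its partner named first, so the direction of each ratio is fixed by that choice, and no test is given. Plk1 counts were 1.21, 1.15 and 1.17 times those of Aurka with DMSO and 0.246, 0.252 and 0.263 times with P3FI-90. Plk1 was thus the more counted kinase in the DMSO libraries and Aurka in the P3FI-90 libraries. Kif2c against Kif4 differed by -1.98 on the log2 scale, at 1.44, 1.40 and 1.31 with DMSO and 0.387, 0.339 and 0.328 with P3FI-90. Cdc20 against Mad2l1, the activator and its inhibitor, stood at 1.91, 1.89 and 1.92 with DMSO and at 0.593, 0.631 and 0.556 with P3FI-90. The BUB paralogs stood in opposite order in the groups, Bub1b being at 1.62, 1.51 and 1.53 times Bub1 with DMSO and at 0.507, 0.509 and 0.493 times with P3FI-90. The NDC80 complex acts as a single rod and condensin I as a ring. Within the NDC80 complex, Spc25 against Spc24 differed by -0.80 and Nuf2 against Ndc80 by -0.52. Within condensin I, Ncapd2 against Ncapg differed by -0.65 and Ncaph against Smc2 by -0.63. The remaining pairs, Ccnb1/Ccna2, Cenpf/Cenpe, Cdca8/Aurkb, Kif22/Kif15, Pttg1/Espl1 and Kif23/Ect2, differed by -0.59 to -1.26.

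**Figure D3:**
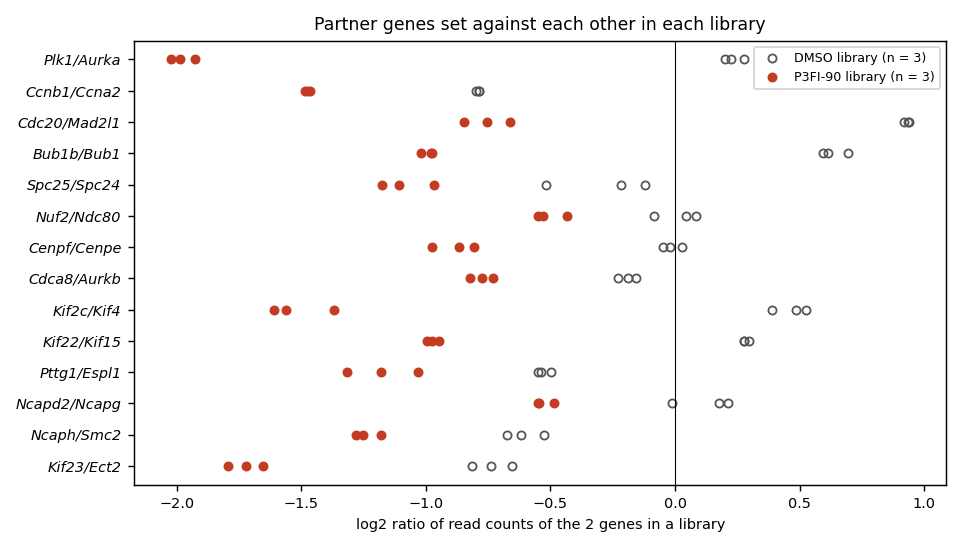
The horizontal axis is the log2 ratio of the read counts of the named genes in 1 library, open circles for DMSO and filled circles for P3FI-90 (n = 3 each). The pairs and their orientation were chosen from these values, so that the filled circles lie to the left by choice, and the differences run from -0.52 for Nuf2/Ndc80 to -2.21 for Plk1/Aurka.

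Per kilobase of exon, the members stood in a different order in the groups. With DMSO the highest levels were those of Ccnb2 at 162.6, Top2a at 141.7, Cdc20 at 131.5 and Ccna2 at 126.9 CPM per kilobase. With P3FI-90 they were those of Smc4 at 124.0, Top2a at 100.2, Ccna2 at 62.4 and Ect2 at 60.8. Of these leading genes only Smc4 was called higher in the TMM fit. Cdc20 went from rank 3 to rank 27 of the 56 and Plk1 from rank 8 to rank 41, while Aurka went from rank 12 to rank 5. Kif18a was the lowest in both groups, at 6.16 and 5.53. The median over the members was 37.5 with DMSO and 24.4 with P3FI-90. Lengths were those of all annotated exons of a gene, so neighboring ranks are approximate and were not tested against each other.

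Most member promoters held a match to the CHR. RefSeq promoter sequences on GRCm38.p6, from 250 bases before to 50 bases after a transcription start, matched 47 members with 50 promoters. Spc24, Kif20a, Cdc25c, Incenp, Foxm1, Ccna2, Aurkb, Tpx2 and Smc4 had no entry. The CHR was searched as TTTGAA, its reverse complement TTCAAA, and the palindrome TTCGAA, and the CCAAT box as CCAAT or its reverse complement ATTGG. A CHR match stood in 39 of 50 member promoters (78.0%) and in 6316 of all 32851 promoters (19.2%). Of the other mitotic promoters 42.2% had one, and of DNA replication promoters 19.2%. Within 50 bases of the start, 70.0% of member promoters and 5.31% of all promoters held a match. A CCAAT box was found in 74.0% and 37.4%, and both elements in 66.0% and 7.52%. A match is a description of letters, not of a bound site.

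**Figure D4:**
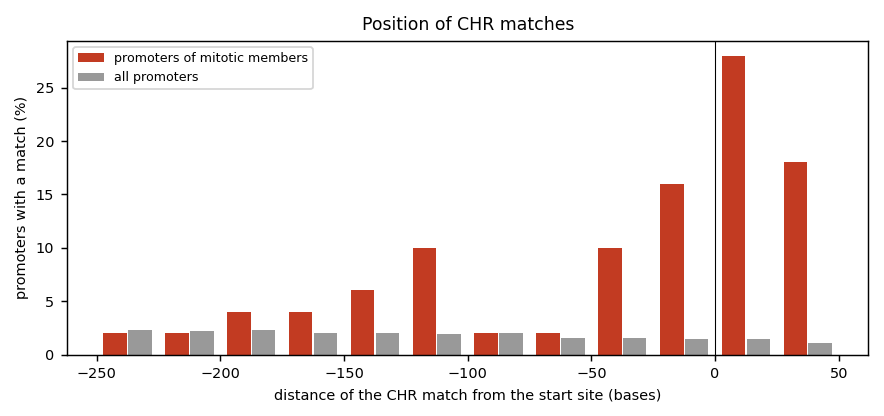
The vertical axis is the share of promoters with a CHR match that begins in each 25-base bin, and the horizontal axis the distance from the annotated start, for the 50 member promoters and all 32851 promoters. Member promoters peak just past the start, at 28.0% against 1.43% in the bin from 0 to 25 bases.

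The 120 bases before the start (GRCm38.p6, RefSeq, written along the gene's strand) are shown for Cdc20, Ube2c, Kif22 and Cdk1, which fell and hold a CHR there. They are followed by Ccnb1, which fell and has CCAAT boxes but no match to the searched CHR letters. Other forms of the CHR were not searched, so this sequence may hold one. Kif11, Kif15 and Ncapg come last. They have a CHR at a like place and fell little, passed in neither direction or rose. Capitals mark CHR and CCAAT letters.
Cdc20, chr4:118437344-118437463, minus strand: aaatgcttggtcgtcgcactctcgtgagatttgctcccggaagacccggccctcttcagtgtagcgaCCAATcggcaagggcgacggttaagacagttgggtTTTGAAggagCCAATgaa
Ube2c, chr2:164769809-164769928, plus strand: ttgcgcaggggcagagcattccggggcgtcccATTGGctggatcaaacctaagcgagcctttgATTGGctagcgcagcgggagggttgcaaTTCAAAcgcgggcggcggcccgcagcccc
Kif22, chr7:127042421-127042540, minus strand: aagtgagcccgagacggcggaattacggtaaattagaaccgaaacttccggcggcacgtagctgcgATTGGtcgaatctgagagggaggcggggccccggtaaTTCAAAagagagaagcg
Cdk1, chr10:69352913-69353032, minus strand: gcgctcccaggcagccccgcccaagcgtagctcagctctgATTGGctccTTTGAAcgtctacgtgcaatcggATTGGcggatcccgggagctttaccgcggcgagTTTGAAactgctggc
Ccnb1, chr13:100786487-100786606, minus strand: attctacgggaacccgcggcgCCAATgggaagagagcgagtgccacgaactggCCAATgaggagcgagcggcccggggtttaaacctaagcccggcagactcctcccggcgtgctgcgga
Kif11, chr19:37376262-37376381, plus strand: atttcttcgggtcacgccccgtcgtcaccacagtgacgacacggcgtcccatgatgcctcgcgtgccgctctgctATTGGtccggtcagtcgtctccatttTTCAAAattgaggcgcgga
Kif15, chr9:122950961-122951080, plus strand: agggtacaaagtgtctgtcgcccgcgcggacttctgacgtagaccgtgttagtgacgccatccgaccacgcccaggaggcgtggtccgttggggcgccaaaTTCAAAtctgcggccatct
Ncapg, chr5:45669805-45669924, plus strand: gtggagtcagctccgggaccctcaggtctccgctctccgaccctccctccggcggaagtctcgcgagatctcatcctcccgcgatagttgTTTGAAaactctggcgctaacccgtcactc

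In other members the element lies at or just past the start. The 30 bases around it, with the same capitals, are shown for Plk1, Ccnb2, Bub1b, Cenpf and Kif23, which fell by more than 1, and for Bub1, Ndc80, Kif4 and Smc2, which rose.
Plk1, chr7:122159453-122159482, plus strand: cccagcgccgcgTTTGAAttcggggaggag
Ccnb2, chr9:70421533-70421562, minus strand: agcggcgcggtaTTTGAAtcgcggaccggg
Bub1b, chr2:118598231-118598260, plus strand: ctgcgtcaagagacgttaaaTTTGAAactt
Cenpf, chr1:189688067-189688096, minus strand: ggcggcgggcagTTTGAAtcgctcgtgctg
Kif23, chr9:61946780-61946809, minus strand: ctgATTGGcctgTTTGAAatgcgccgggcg
Bub1, chr2:127831828-127831857, minus strand: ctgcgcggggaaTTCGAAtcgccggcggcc
Ndc80, chr17:71526811-71526840, minus strand: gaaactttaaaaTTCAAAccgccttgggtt
Kif4, chrX:100626072-100626101, plus strand: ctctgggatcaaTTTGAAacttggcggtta
Smc2, chr4:52439235-52439264, plus strand: ctcgcgccgaaaTTCAAAggaacagttccg

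Members with and without a CHR match had like medians. The 36 members with a match had a median log2 fold change of -0.49, with 29 lower and 5 higher. The 11 with a promoter but no match to the searched letters had a median of -0.45, all 11 being lower. Other forms of the element were not searched. The 30 members with both a CHR match and a CCAAT box had a median of -0.59, with 26 lower and 4 higher. The 5 risers with a promoter, Bub1, Ndc80, Kif4, Smc2 and Ncapg, all have a CHR match within 50 bases of the start. Over all tested genes the median was -0.02 for the 1562 with a CHR match and 0.03 for the 8030 with a promoter but no match. Of those with a match 41% were called lower and 39.5% higher, and of those without one 39.1% and 40.4%. No test was made of these values.

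Of 119 further mitotic genes from a list that excludes the members, all tested, 63 fell, 34 rose and 22 passed in neither direction, with a median log2 fold change of -0.22. With total counts 50 were lower and 53 higher, beside 29.6% and 50.3% of all tested genes. The lists are set out by kind against the 39.4% of all tested genes called lower and 39.9% called higher with TMM, and no test of a difference between lists was made. Among 55 other G2/M genes 38 fell and 6 rose (31 and 17 with total counts), with Sapcd2 at -2.35, Ccnf, cyclin F, at -2.08 and Knstrn, a kinetochore and spindle protein, at -1.72, while Cit, the citron kinase of the midbody, was at 0.80, Ensa at 0.78 and Plk4, the kinase of centriole duplication, at 0.39. Of 16 APC/C genes 8 fell and 6 rose, 50% and 37.5%, from Anapc2 at -1.16 to Anapc7 at 0.90. Besides subunits, these include the activator Fzr1, which fell, and the ubiquitin-conjugating enzyme Ube2s, which rose. Further APC/C subunits on each side were Anapc4 at -0.92, Anapc5 at -0.61, Anapc16 at 0.80 and Anapc11 at 0.48. With total counts 6 were lower and 8 higher. The named log2 fold changes of these further lists, given from the TMM fit, all passed edgeR's test with Benjamini-Hochberg adjustment.

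Of 31 genes for the inner kinetochore and its outer partners 12 fell and 13 rose (8 and 16 with total counts), 38.7% and 41.9% and so near the shares over all tested genes, with Cenpc1 at -0.999 and Cenpt at -0.68, against Nsl1 at 1.47, Zwilch at 1.06 and Spdl1 at 0.83. Of 17 cohesin and condensin II genes 5 fell and 9 rose (5 and 12), among them Ncaph2 at -0.64, the cohesin kleisin Rad21 at -0.59 and Sgo2a at -0.50, and Ncapd3, the condensin II subunit, at 1.00, the cohesin loader Nipbl at 0.87 and the shugoshin Sgo1 at 0.53. Of 53 DNA replication genes 19 fell and 27 rose (14 and 34), with a median of 0.11. Rrm2, a ribonucleotide reductase subunit, was at -1.96, Tk1, thymidine kinase, at -1.56 and Pcna, the sliding clamp, at -0.92, while Orc6 was at 0.87, Cdc45 at 0.71 and Wdhd1 at 0.56. Of 21 regulators of cell cycle transcription 14 rose and 5 fell (15 and 2). The MuvB subunits Lin54 and Lin37 were at 1.36 each and Trp53, encoding p53, at 1.59. The histone chaperone Rbbp4, also a MuvB subunit, was at -0.60, and the E2F partners Tfdp2 and Tfdp1 were at -0.40 and -0.18. With total counts Tfdp1 was at 0.03, without a call. Tubulins, whose polymers form the spindle, fell in 11 of 14 genes and none rose (11 and 1 with total counts), with a median of -1.77 and Tubb4b at -2.84, Tuba1c at -2.61 and Tubb5 at -2.41.

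**Figure D5:**
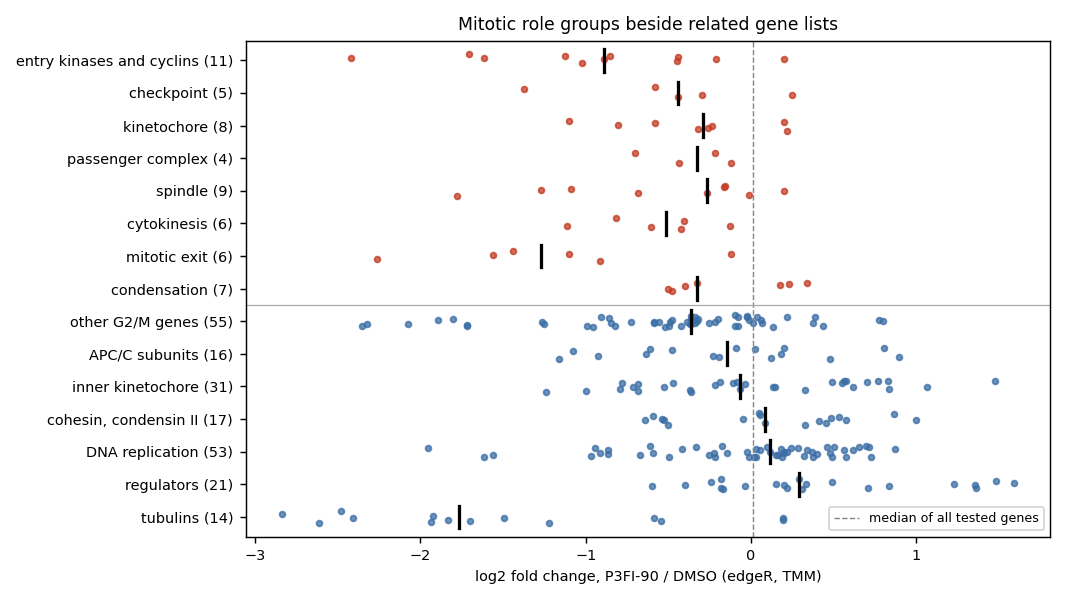
Each point is 1 gene, placed by its log2 fold change of P3FI-90 against DMSO on the horizontal axis, red for the 56 members by role and blue for related lists, with the number of genes in brackets. Black bars are list medians, from -1.27 for mitotic exit to -0.26 for spindle genes among the members, and the dashed line is the median of all tested genes, 0.01.

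Some members share sequence with other genes, which bears on their counts. Over 10% of the 50-base windows of 10 members occur in another gene of GENCODE M21, led by Cks2 at 29.7%, Kif20a at 25.2% and Ccnb1 at 23.4%. For Cks2, Ccnb1, Plk1 and Cdc20 the other gene is an annotated pseudogene or carries a predicted-gene name. For 7 members over 10% of exon bases lie under a gene on the opposite strand, and whether counting used strand is not stated, so those reads cannot be told apart. Ncapg overlaps Lcorl over 13.4% of its exon bases, and Lcorl was at 1.13 on the log2 scale. Kif4 overlaps Pdzd11 over 15.1%, and Pdzd11 was at 0.48. Kif20a overlaps Cdc23 over 29.3%, and Cdc23 was at 0.20. Ccna2 overlaps Exosc9 over 12.5% and Prc1 overlaps Rccd1 over 11.1%, and these partners were at -0.66 and 0.95. Ube2c overlaps Tnnc2 over 22.8%, and Tnnc2 had means of 0 and 2.19 normalized counts. For Cdc25c the partner over 12.7% is Gm3550, whose counts were not analysed here. The part of this overlap in the values above was not tested. Across the members, Spearman's rho of the log2 fold change was 0.333 with exon length and -0.395 with GC content, against 0.212 and -0.134 over 12263 tested genes with a length. These are correlations across genes, which are not independent replicates.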

How the data were processed

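Total RNA of 4T1 cells (DMSO or 10 µM P3FI-90, 24 h, 3 libraries each) was extracted with TRIzol, made into mRNA libraries and sequenced on an Illumina NovaSeq instrument by the authors. They deposited a table of whole-number read counts per gene, without normalization. The submitters' processing notes name CASAVA, HISAT2, StringTie and GRCm39, without versions or roles; strandedness is not given in the sources used here. The 296 of 22401 rows without a gene identifier (0.483% to 0.556% of counts) were left out.

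The counts were analysed in R 4.3.3 with edgeR 4.0.16: filterByExpr left 12288 genes, TMM scaled the libraries, and the quasi-likelihood test gave p-values that were adjusted by the Benjamini-Hochberg method across these genes (call at an adjusted p under 0.05); the common biological coefficient of variation was 0.0648. A value is a fold change of all 3 treated against all 3 control libraries, and SE is that of the log2 fold change. The study's own test was limma. Alternatives were DESeq2 1.42.0 size factors and Wald test, total counts, upper quartiles, other filters, limma-voom and limma on log2(CPM + 1) with limma 3.58.1, a replicate block and leaving out each library. Removal of a length and GC trend was added after seeing the data. The scripts were tested on simulated data. Lengths, GC content, overlaps and shared windows were computed on GENCODE M21, with 21995 gene identifiers matched, and promoters from RefSeq on GRCm38.p6, with no coordinates converted.

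The members and all lists were chosen with earlier results of these data known. Named with a value in each library are the 3 members of smallest p per role group. All of a group of 5 or fewer, and any member called against most of its group, are given in this way too. So are Kif15 and Cdca5, which had no call in the TMM fit. Of other lists, those named with a value were chosen as the 3 of smallest p in each direction. Some genes of the other lists are not reported here. No 2 libraries of a group agreed within sampling noise, and deviations of libraries with the same number were uncorrelated (r = -0.0214, 0.015 and 0.00491), so none were paired.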

Additional observations from a re-analysis of the deposited data

How the results depend on the processing

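Over the 16 alternatives, the call of a member, and for called members its direction, was the same as in the TMM fit in 874 of 896 cases. Total counts put 7 members above 0 that were below it with TMM, which follows from their shift of 0.21. They were Aurka at 0.0051, Aurkb at 0.10, Kif11 at 0.0484, Kif15 at 0.20, Kif18a at 0.0595, Ect2 at 0.0895 and Cdca5 at 0.0955. Of these, Aurkb, Kif15 and Ect2 were called higher with total counts, and Kif15 and Cdca5 had no call with TMM. The calls for Ttk, Cenpe, Nuf2, Knl1, Birc5 and Hmmr were lost with total counts. Removal of the length and GC trend put Aurkb at 0.0049 and Ncapg at -0.078; the cause was not tested. The members' median log2 fold change was -0.23 with total counts, -0.48 with upper quartiles and -0.58 with the trend removed, and 53 of the other mitotic genes were higher with total counts. Leaving out a library in turn gave 45 to 47 members lower, 8 higher in each case, and a median of -0.47 to -0.44. With 1 library left out, Kif18a lost its call without DMSO sample 2, P3FI-90 sample 2 or P3FI-90 sample 3, and Cdca5 gained one without DMSO sample 3 or P3FI-90 sample 3. With a replicate block, 46 members were lower and 8 higher, with a median of -0.45; the block left 60 other mitotic genes lower and 32 higher, and all tested genes at 4722 lower and 4802 higher. With 3 libraries a group, from 1 line at 1 dose and time, falls smaller than the shift between scalings do not keep their direction under total counts.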
